A study of Mus musculus with 34 samples.

Results

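Genes of the collagen matrix of skeletal muscle were followed in mdx mice, which lack dystrophin, and in BL10 mice, with and without L-arginine. The 7 genes were Postn, Col1a2, Col5a1, Col5a2, Fmod, Bgn and Lox, of 637 genes with probes of a single symbol in both value tables. They were chosen by name and function, with earlier results of these data known. They have 9 probes per table: Postn and Col1a2 have 2 each and the other 5 have 1. All 7 had enough values to be tested. Total RNA was hybridised to 34 2-colour arrays in 8 groups. The L-arginine table holds mdx hindlimb, BL10 hindlimb, mdx diaphragm and BL10 diaphragm of treated mice, with 4 arrays each, at 3, 5, 9 and 12 weeks of age. The untreated table holds the same muscles and ages, in 4 arrays for each BL10 group and 5 for each mdx group, where 12 weeks has a Sample 1 and a Sample 2. Dose, route and duration of the treatment, and which muscles make up a hindlimb sample, were not given in the sources used here.

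Fibrillar collagens form the load-bearing fibres around muscle fibres. Small leucine-rich proteoglycans bind those fibres and set their spacing, matricellular proteins such as periostin link them to other matrix proteins, and lysyl oxidase cross-links them. In dystrophic muscle this matrix accumulates with age as fibrosis, which is marked in the mdx diaphragm. Fibroblasts and fibro-adipogenic progenitors make most of it.

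A deposited value was read as a linear ratio of the named sample over a 12-week RNA of the same strain, and its log2 is given throughout. This direction is likely from the order of the channel labels but is not settled: the lowest correlation between untreated arrays, of unlike strains, was -0.41 (Pearson's r over all probes), with 4 of 153 pairs under -0.3. If the ratio ran the other way, every sign below would turn. A ratio is not a level, so values are not compared between genes as amounts, and a strain difference is one between ratios to each strain's own 12-week RNA. The tissue of that RNA, and whether it came from treated mice, is not named. At 12 weeks both channels carry the same label. A BL10 hindlimb array of treated mice, at 9 weeks, has MDX in the labels of both its channels. Its title places it in BL10, where it was left, and the strain differences that passed and the counts of groups that do not overlap are given without it too. Nothing in the labels says that each array is another animal. The p-values therefore measure how far these arrays spread, and that spread may be technical. Each group has a single array per age, except untreated mdx at 12 weeks, so its ages serve as replicates. The spread in the fit thus also holds age changes that differ between groups, and an SD over arrays holds all change with age. In bulk muscle, fewer cells of a type and less RNA per cell cannot be told apart.

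Deposited ratios had array medians of 0.94 to 1.22 in the L-arginine table and 0.73 to 1.08 in the untreated table. The arrays held 2 to 36 and 0 to 225 probes at or below 0, which have no log. The 9 member probes had a value on every array, except 1 Postn probe on the untreated BL10 diaphragm array at 3 weeks. Dmd, the mutated gene in mdx mice, has no probe of that single symbol, so the strain labels were not checked with it. In untreated mdx muscle at 12 weeks, the Sample 1 arrays stood apart from Sample 2, above all for Postn, as described with the untreated values. Of 13 listed genes of the skeletal muscle fibre 8 were measured, but ratios to a 12-week RNA of unnamed tissue do not show their levels. Of 9 listed fibroblast genes only Vim was measured.

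With probes averaged per gene, Postn, Col1a2 and Bgn had the higher mdx ratio at every age in both treated muscles. For Postn the first of 2 annotated starts was taken, and which start the measured transcripts use was not tested. The promoters of these 3 genes are shown as the sequence around an annotated start. They are taken from RefSeq (GRCm38.p6, 250 bases before to 50 after the annotated start, all on the plus strand), which matched 5 of the 7 genes. Capitals mark motifs found on either strand, searched as TATAAA for the TATA box, as CCAAT for the CCAAT box, as GGGCGG for the GC box and as TGANTCA for the AP-1 site.
Postn, chr3:54359017-54359316: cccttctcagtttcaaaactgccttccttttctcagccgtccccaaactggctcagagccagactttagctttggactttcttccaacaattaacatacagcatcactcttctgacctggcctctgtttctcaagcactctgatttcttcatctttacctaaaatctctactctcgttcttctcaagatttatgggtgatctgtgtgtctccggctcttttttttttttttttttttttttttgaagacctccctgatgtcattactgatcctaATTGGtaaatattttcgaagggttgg
Col1a2, chr6:4505368-4505667: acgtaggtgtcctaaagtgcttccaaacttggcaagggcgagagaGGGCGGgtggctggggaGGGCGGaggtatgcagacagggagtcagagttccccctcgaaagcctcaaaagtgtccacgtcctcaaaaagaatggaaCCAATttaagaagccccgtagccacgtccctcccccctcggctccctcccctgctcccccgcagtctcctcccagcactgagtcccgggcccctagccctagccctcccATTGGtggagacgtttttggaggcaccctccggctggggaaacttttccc
Bgn, chrX:73483351-73483650: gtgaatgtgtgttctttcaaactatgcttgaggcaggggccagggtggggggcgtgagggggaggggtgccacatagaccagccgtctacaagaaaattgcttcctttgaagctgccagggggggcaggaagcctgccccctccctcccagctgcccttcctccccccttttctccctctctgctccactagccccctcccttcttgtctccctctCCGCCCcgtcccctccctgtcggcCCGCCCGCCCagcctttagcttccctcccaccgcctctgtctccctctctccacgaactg
Postn holds 1 CCAAT box, on the minus strand at bases 25 to 29 after the start. Its gene has a second annotated start, where TATAAA lies at bases -26 to -21. Col1a2 holds GC boxes at bases -205 to -200 and -188 to -183, and CCAAT boxes at bases -109 to -105 and, on the minus strand, 1 to 5. Bgn holds 3 GC boxes on the minus strand, at bases -34 to -29, -10 to -5 and -6 to -1, of which the last 2 overlap. Of all 32851 RefSeq promoters of this length, 13.6% hold the TATA box letters, 37.4% those of the CCAAT box, 35.7% those of the GC box and 7.81% those of the AP-1 site. None of these motifs was found in all 3 sequences.

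In treated mice, Postn, Bgn and Lox, 3 of the 7 genes, passed with a higher ratio in mdx muscle than in BL10 muscle, averaged over both tissues. None of the 7 passed with a lower ratio. Over all genes, 10 of 633 passed this test, which is 1.58%, and all 10 had the higher ratio in mdx. Each ratio is to an RNA of the same strain, so these results do not show whether levels differed between mdx and BL10 muscle. The members' median difference was 0.61, against 0.06 over all genes, and 6 of 7 were above 0, against 58% of all genes. Of 29 alternative settings, the call held in 16 for Postn, 9 for Bgn and 8 for Lox, and that of Postn rests on 1 of its 2 probes.

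Postn (chr3:54359267-54391041, GRCm38.p6 as for all positions) encodes periostin, a matricellular protein that binds collagen and is made by activated fibroblasts. In treated mdx hindlimb its log2 ratio was 2.04, 2.30, 1.75 and 1.30 at 3, 5, 9 and 12 weeks, against 1.19, 2.09, 0.47 and 0.21 in treated BL10 hindlimb. In treated mdx diaphragm it was 1.25, 2.56, 1.27 and 1.88, against 0.55, 0.07, 0.27 and 0.24 in treated BL10 diaphragm. By the mean of its probes, the mdx array was the higher at each age in both tissues. The diaphragm groups did not overlap, whereas the hindlimb groups did through the BL10 array at 5 weeks. The difference over both tissues was 1.16 ± 0.23 (SE; 2.23-fold, adjusted p = 0.0335, limma with Benjamini-Hochberg adjustment). It was 0.86 in hindlimb (adjusted p = 0.191) and 1.46 in diaphragm (adjusted p = 0.176), neither of which passed. With the ratio turned, the difference over both tissues would be -1.16.

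The 2 Postn probes disagreed in treated hindlimb. Probe 1155 gave 3.92, 3.91, 3.32 and 2.31 in mdx hindlimb at 3, 5, 9 and 12 weeks, against 1.10, 2.28, 0.80 and 0.14 in BL10 hindlimb. Probe 492 gave 0.15, 0.70, 0.18 and 0.30 in mdx hindlimb, against 1.28, 1.90, 0.14 and 0.28 in BL10 hindlimb. By the first probe every mdx hindlimb array was above every BL10 one, and by the second the BL10 group had the higher mean. Over both tissues, probe 1155 differed by 2.20 (adjusted p = 0.00315 over all probes), and probe 492 by 0.12 (adjusted p = 0.865). In diaphragm both pointed up in mdx, by 2.11 and 0.80. The 2 probes correlated with r = 0.27 over the 16 treated arrays and r = 0.88 over 17 untreated ones. Both are annotated to Postn, and which one follows the transcript was not tested.

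**Figure D1:**
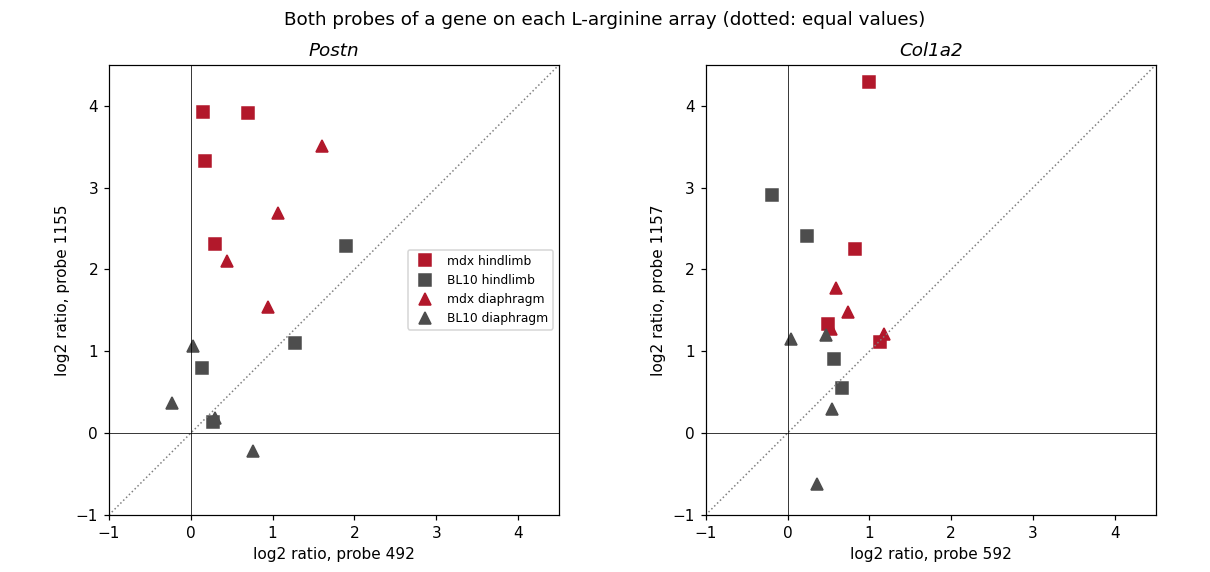
Log2 ratios of both probes of Postn (left; probe 492 across, probe 1155 up) and Col1a2 (right; probe 592 across, probe 1157 up) on each of the 16 arrays of treated mice; red is mdx, grey BL10, squares hindlimb and triangles diaphragm. The 4 mdx hindlimb squares of Postn lie between 2.31 and 3.92 by probe 1155 and between 0.15 and 0.70 by probe 492.

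Col1a2 (chr6:4505618-4541543) encodes the alpha-2 chain of type I collagen, the main fibrillar collagen of muscle. Its log2 ratio in treated mdx hindlimb was 1.54, 2.65, 0.91 and 1.12 at 3, 5, 9 and 12 weeks, against 1.32, 1.36, 0.74 and 0.61 in treated BL10 hindlimb. In treated mdx diaphragm it was 0.90, 1.18, 1.11 and 1.20, against 0.60, 0.83, 0.42 and -0.13 in treated BL10 diaphragm. By the mean of its probes, the mdx array was again the higher at each age in both tissues, and the diaphragm groups did not overlap. The difference over both tissues was 0.61 ± 0.18 (SE; adjusted p = 0.161) and did not pass. Its probes correlated with r = 0.04 over the treated arrays. Probe 592 gave a difference of 0.47 and probe 1157 one of 0.74 over both tissues (adjusted p = 0.160 and 0.286), so both pointed up in mdx.

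Bgn (chrX:73483601-73495936) encodes biglycan, a small leucine-rich proteoglycan that binds type I collagen and the dystrophin-associated complex. In treated mdx hindlimb its log2 ratio was 1.68, 0.90, 1.62 and 0.94 at 3, 5, 9 and 12 weeks, against 0.89, 0.71, 0.62 and 0.48 in treated BL10 hindlimb. In treated mdx diaphragm it was 0.85, 1.41, 1.05 and 0.93, against 0.07, 0.71, 0.23 and -0.40 in treated BL10 diaphragm. Every mdx array was above every BL10 array of its tissue, by a narrow margin in hindlimb (0.90 in the lowest mdx array, against 0.89 in the highest BL10 array). The difference over both tissues was 0.76 ± 0.16 (SE; 1.69-fold, adjusted p = 0.0401, limma). It was 0.61 in hindlimb (adjusted p = 0.195) and 0.90 in diaphragm (adjusted p = 0.319). Turned, the difference over both tissues would be -0.76.

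Lox (chr18:52516060-52529867) encodes lysyl oxidase, the copper enzyme that starts the cross-linking of collagen and elastin. In treated mdx hindlimb its log2 ratio was 1.90, 1.66, 1.27 and 1.44 at 3, 5, 9 and 12 weeks, against 0.62, 0.83, -1.56 and 0.01 in treated BL10 hindlimb. In treated mdx diaphragm it was 0.48, 0.54, -0.74 and 0.49, against 0.58, 0.24, -1.03 and -1.36 in treated BL10 diaphragm. The hindlimb groups did not overlap, and the diaphragm groups did. The lowest hindlimb value, -1.56, is that of the array whose labels name MDX. Over both tissues the difference was 1.09 ± 0.24 (SE; 2.12-fold, adjusted p = 0.0424, limma). It was 1.59 in hindlimb (adjusted p = 0.0572) and 0.58 in diaphragm (adjusted p = 0.998). Turned, the value over both tissues would be -1.09.

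Without the BL10 hindlimb array at 9 weeks that names MDX, none of the 7 passed over both tissues. The differences were then 1.10 for Postn (adjusted p = 0.0823, limma), 0.73 for Bgn (adjusted p = 0.0852) and 0.93 for Lox (adjusted p = 0.0824). In hindlimb alone, Lox then differed by 1.29 (adjusted p = 0.124). With each of the 16 treated arrays left out in turn, 0 to 2 of the 7 passed. Over both tissues the direction of these 3 genes was the same in all 29 alternatives. Among these, probes fitted singly were given by the probe of smallest p of each gene.

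**Figure D2:**
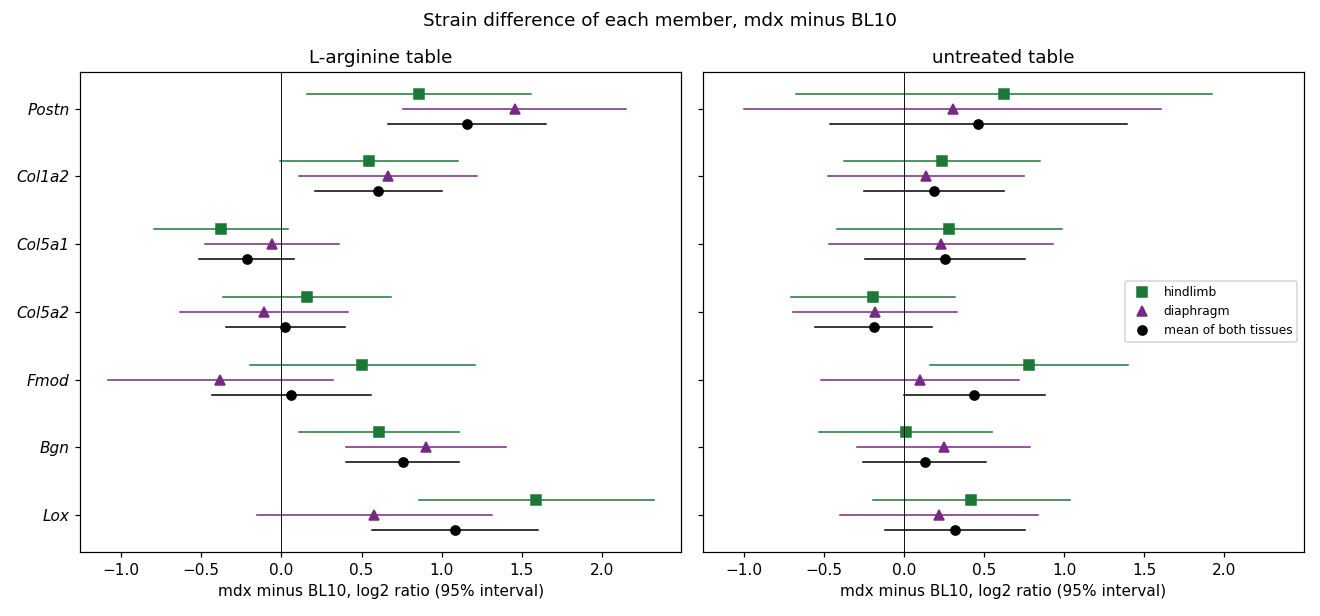
Difference in log2 ratio, mdx minus BL10, for each gene in hindlimb (squares), diaphragm (triangles) and over both tissues (circles), with 95% intervals from limma, for the L-arginine table (left) and the untreated table (right). In the L-arginine table the differences over both tissues were 1.16 for Postn, 0.76 for Bgn and 1.09 for Lox, and in the untreated table the intervals of Fmod in hindlimb and over both tissues lie above 0 while all others hold 0.

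The type V collagen genes showed no strain difference that passed. Col5a1 (chr2:27886381-28039510) and Col5a2 (chr1:45374331-45503282) encode chains of the minor collagen that starts type I fibrils and limits their width. Col5a1 averaged -0.51 ± 0.25 in treated mdx hindlimb and -0.13 ± 0.33 in treated BL10 hindlimb (SD, n = 4 each), with a difference over both tissues of -0.22 (adjusted p = 0.518). It was the one gene of the 7 whose difference there was below 0, and its 95% interval ran from -0.51 to 0.08. Its values in mdx hindlimb were -0.67, -0.69, -0.15 and -0.51 at 3, 5, 9 and 12 weeks, all below 0. Col5a2 averaged 0.29 ± 0.32 in treated mdx hindlimb and 0.13 ± 0.52 in treated BL10 hindlimb, and 0.25 ± 0.14 in treated mdx diaphragm and 0.36 ± 0.20 in treated BL10 diaphragm (SD, n = 4 each). Its difference over both tissues was 0.02 (interval -0.35 to 0.39, adjusted p = 0.952), and its sign turned under 12 of 29 alternatives.

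Fmod (chr1:134037254-134048280) encodes fibromodulin, a small leucine-rich proteoglycan of tendon and muscle connective tissue that binds type I collagen. In treated mdx hindlimb its log2 ratio was 0.85, 1.79, 2.76 and 0.77 at 3, 5, 9 and 12 weeks, against 1.06, 1.01, 0.99 and 1.08 in treated BL10 hindlimb. The BL10 hindlimb values lay between 0.99 and 1.08, while those of mdx hindlimb spread on both sides of them. In treated mdx diaphragm it was 0.42, 0.28, 0.04 and -0.03, against 0.43, 0.80, 0.58 and 0.43 in treated BL10 diaphragm, and every mdx array was below every BL10 array. The difference was 0.51 in hindlimb (adjusted p = 0.387), -0.38 in diaphragm (adjusted p = 0.998) and 0.06 over both tissues (adjusted p = 0.913). The contrast between the tissues itself did not pass, at 0.89 (interval -0.11 to 1.88, adjusted p = 0.695). None of the 7 passed that test, and neither did any of the 633 genes (0%), of which 42 had an unadjusted p under 0.05.

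In each tissue alone, 0 of the 7 passed, and 1 of 633 genes did (0.158% in hindlimb and 0.158% in diaphragm). In hindlimb, 2 of the 7 (Bgn and Lox) had every mdx array above every BL10 array, against 4.62% of 585 genes with a value on all 8 arrays. In diaphragm, 3 of the 7 (Postn, Col1a2 and Bgn) did, against 4.28% of 607 genes, and 1 (Fmod) had every mdx array below, against 1.48%. With probes averaged per gene, Postn, Col1a2 and Bgn had the higher mdx value in all 8 pairs of the same age and tissue, against 3.31% of 574 genes. By Postn probe 492 the mdx hindlimb array was the lower at 3 and 5 weeks. It was also the lower by Col1a2 probe 592 at 9 weeks and by Col1a2 probe 1157 at 3 weeks. Without the array at 9 weeks that names MDX, Bgn and Lox were the 2 hindlimb genes as before, against a background of 7.12%.

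**Figure D3:**
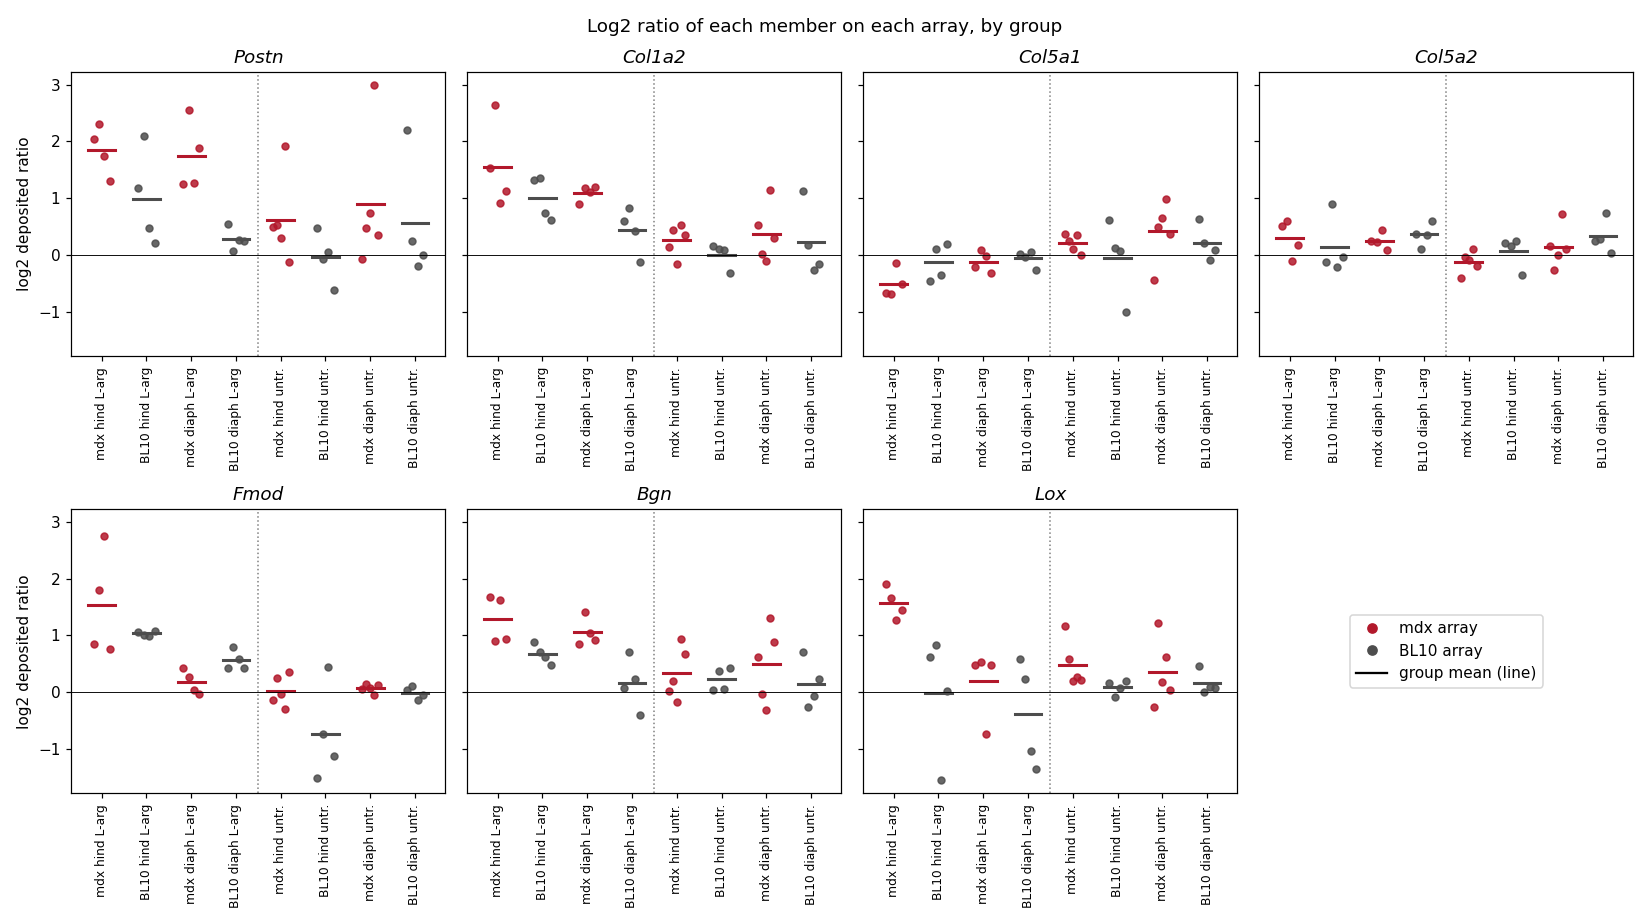
Log2 deposited ratio of each gene on each array (points) and the group mean (line), for 8 groups; mdx is red and BL10 grey, and the dotted line parts treated from untreated groups, which come from separately made tables. Treated mdx arrays of Bgn sit between 0.85 and 1.68, and Lox in treated mdx hindlimb sits between 1.27 and 1.90.

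In untreated mice, 0 of the 7 passed the strain test in hindlimb, where 1 of 637 genes did (0.157%), in diaphragm (0%, with 62 genes at an unadjusted p under 0.05) or over both tissues (0%, with 90). Of the 7, 1 (Fmod) had an unadjusted p under 0.05 in hindlimb (11.9% of all genes) and over both tissues (14.1%). No gene of the 7 had groups that did not overlap in either tissue, against 2.48% above and 0.621% below in hindlimb and 1.82% and 0.547% in diaphragm. The differences over both tissues were 0.46 for Postn (interval -0.46 to 1.39), 0.13 for Bgn (-0.26 to 0.51) and 0.32 for Lox (-0.12 to 0.76). The interval of Postn holds its difference in treated mice, and those of Bgn and Lox end below theirs. The median over all untreated genes was 0.17. Of the 8 pairs of the same age and tissue, the mdx array was the higher in 7 for Postn, Fmod and Lox, against 11.2% of 419 genes with at least 7, and in 3 for Bgn and 4 for Col1a2.

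Array by array, Lox in untreated mdx hindlimb was 1.17, 0.58 and 0.19 at 3, 5 and 9 weeks and 0.26 and 0.21 at 12 weeks, against 0.16, -0.09, 0.07 and 0.19 in untreated BL10 hindlimb at 3, 5, 9 and 12 weeks. Fmod in untreated mdx hindlimb was -0.14, 0.25 and -0.03 at 3, 5 and 9 weeks and -0.30 and 0.36 at 12 weeks, against -1.51, -0.74, 0.44 and -1.12 in untreated BL10 hindlimb. Its mdx values lay near 0, while 3 of the 4 BL10 values lay below all of them and the BL10 array at 9 weeks above. The Fmod difference in hindlimb was 0.78 (adjusted p = 0.387), and 1.18 (adjusted p = 0.0272, limma) without that BL10 array. The array left out is the 1 that runs against the difference, and Fmod passed in this 1 of 32 alternatives only. On the BL10 hindlimb arrays the mean of 8 muscle fibre genes was -1.16, -0.13, -0.04 and -0.69 at 3, 5, 9 and 12 weeks. Whether the low Fmod values go with it was not tested. Bgn in untreated mdx diaphragm was 0.61, -0.03 and -0.32 at 3, 5 and 9 weeks and 1.30 and 0.88 at 12 weeks, against 0.70, -0.27, -0.07 and 0.23 in untreated BL10 diaphragm. The mdx arrays at 12 weeks were its highest, and the rest overlapped.

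Within untreated mdx muscle, Sample 1 and Sample 2 at 12 weeks stood apart, although both channels of each carry the same label. Postn was 3.00 on Sample 1 and 0.35 on Sample 2 in diaphragm, where it ranked first of 632 genes on Sample 1 and 98 of 637 on Sample 2. In hindlimb it was 1.92 on Sample 1, rank 4 of 636, and -0.13 on Sample 2, rank 392 of 633. In diaphragm Col1a2 was 1.14 on Sample 1 and 0.30 on Sample 2, Col5a1 0.99 and 0.37, Col5a2 0.72 and 0.10, and Bgn 1.30 and 0.88. So 6 of the 7 genes were the higher on Sample 1 in both tissues, and Fmod was the lower in both. The share of all genes that were the higher on Sample 1 in both tissues was not counted. Whether the 7 genes differ from other genes in this is therefore not shown. At the other end, the untreated BL10 diaphragm array at 3 weeks had 2.19 for Postn, from 1 probe, 1.13 for Col1a2 and 0.70 for Bgn. Without the 12-week arrays the untreated differences of Postn and Bgn over both tissues were -0.04 and -0.09. Markers of other cells were also the higher on Sample 1. The mean of 4 macrophage genes was 1.16 on Sample 1 and 0.26 on Sample 2 in hindlimb, and 1.31 and -0.34 in diaphragm. That of 4 genes of regenerating muscle was 1.53 and 0.12 in hindlimb, and 1.17 and 0.14 in diaphragm, and Vim was 0.82 and -0.29 in hindlimb, and 1.26 and 0.06 in diaphragm. Their part in the Sample 1 values of the 7 genes was not tested.

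The strain difference was not shown to differ between the tables. Its difference, L-arginine table minus untreated table, over both tissues was 0.69 for Postn (adjusted p = 0.652), 0.63 for Bgn (adjusted p = 0.438) and 0.77 for Lox (adjusted p = 0.438) in a limma fit of both tables. None of the 7 passed over both tissues, where 0 of 632 genes did (0%, with 64 at an unadjusted p under 0.05), nor in hindlimb (0.316%) or diaphragm (0%, with 33). Over both tissues 2 of the 7 (Bgn and Lox) had an unadjusted p under 0.05, against 10.1% of all genes.

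Treated and untreated arrays are set side by side without a test, since they come from tables made separately and treatment cannot be told apart from the table. In hindlimb several genes had high ratios in treated mice of both strains. Fmod averaged 1.54 ± 0.94 (SD, n = 4) in treated mdx hindlimb and 0.03 ± 0.27 (SD, n = 5) in untreated mdx hindlimb, and 1.04 ± 0.04 in treated BL10 hindlimb and -0.73 ± 0.85 in untreated BL10 hindlimb (SD, n = 4 each). Col1a2 averaged 1.55 ± 0.77 (SD, n = 4) in treated mdx hindlimb and 0.26 ± 0.27 (SD, n = 5) in untreated mdx hindlimb, and 1.01 ± 0.39 in treated BL10 hindlimb and 0.01 ± 0.22 in untreated BL10 hindlimb (SD, n = 4 each). Every treated array was above every untreated one for 3 of the 7 in mdx hindlimb (Col1a2, Fmod and Lox), against 7.71% of 597 genes. In BL10 hindlimb 3 of the 7 were (Col1a2, Fmod and Bgn), against 6.01% of 466 genes, and the same 3 without the array that names MDX, against 10.5% of 474 genes. In mdx hindlimb Col5a1 was below on every treated array, against 2.68%.

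In diaphragm, 0 of the 7 were above in mdx (background 1.67%) and 1, Fmod, in BL10 (5.67%). Bgn averaged 1.06 ± 0.25 (SD, n = 4) in treated mdx diaphragm and 0.49 ± 0.66 (SD, n = 5) in untreated mdx diaphragm. Postn averaged 1.74 ± 0.62 (SD, n = 4) in treated mdx diaphragm and 0.90 ± 1.21 (SD, n = 5) in untreated mdx diaphragm, the second including the Sample 1 array. Without both Sample 1 arrays the count in mdx diaphragm was 2 (Postn and Col1a2; background 5.8%) and that in mdx hindlimb 5 (background 12.1%). Over the 8 groups, treated mdx hindlimb had the highest mean of Postn, Col1a2, Fmod, Bgn and Lox, with probes averaged per gene. It had the lowest mean of Col5a1. Neighbouring groups in that order overlapped for Postn: treated mdx hindlimb at 1.85 ± 0.43 and treated mdx diaphragm at 1.74 ± 0.62 (SD, n = 4 each) were followed by treated BL10 hindlimb at 0.99 ± 0.84. By probe 492 alone, Postn averaged 0.33 in treated mdx hindlimb, below 1.01 in treated mdx diaphragm and 0.90 in treated BL10 hindlimb.

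Between muscles of treated mdx mice, Fmod and Lox had higher ratios in hindlimb than in diaphragm on every array. Fmod averaged 1.54 ± 0.94 in treated mdx hindlimb and 0.18 ± 0.21 in treated mdx diaphragm, and Lox 1.57 ± 0.27 and 0.19 ± 0.62 (SD, n = 4 each). The differences were 1.36 ± 0.32 (SE, adjusted p = 0.0645) for Fmod and 1.38 ± 0.34 (SE, adjusted p = 0.0654) for Lox, and neither passed; the median over all genes was 0.23. None of the 7 passed, and 0 of 633 genes did (0%, with 153 at an unadjusted p under 0.05). Having every hindlimb array above every diaphragm array was seen in 10.3% of 593 genes. In treated BL10 mice Fmod was the 1 gene of the 7 to do so, against 3.69% of 597 genes, and 0 of the 7 passed (0%, with 79 of 633 genes at an unadjusted p under 0.05). Fmod was again the 1 gene, against 9.59% of 605 genes, when the array that names MDX was left out, and 0 of the 7 passed. In untreated mice no gene of the 7 passed between tissues, in mdx (0%, with 23 of 637 genes at an unadjusted p under 0.05) or in BL10 (0.157%). Fmod was not the higher in hindlimb there. It averaged -0.73 ± 0.85 in untreated BL10 hindlimb and -0.01 ± 0.11 in untreated BL10 diaphragm (SD, n = 4 each). That difference was -0.72 (unadjusted p = 0.0349, adjusted p = 0.456, limma over all probes). In untreated mdx mice Fmod averaged 0.03 ± 0.27 in hindlimb and 0.07 ± 0.07 in diaphragm (SD, n = 5 each).

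By age, none of the 7 passed against 12 weeks in either table, and neither did any other gene (0% at 3, 5 and 9 weeks). In treated mice, Postn and Col1a2 (2 of the 7) had an unadjusted p under 0.05 at 5 weeks, where 7.9% of 633 genes had. Lox had one at 3 weeks, with a difference of 0.75 by its 1 probe (unadjusted p = 0.0460, adjusted p = 0.778, limma over all probes). The counts of all genes at an unadjusted p under 0.05 were 29, 50 and 22 at 3, 5 and 9 weeks in the L-arginine table and 51, 21 and 21 in the untreated table. In treated mice all 7 differences of 5 minus 12 weeks were above 0, with a median of 0.45, against 0.04 over all genes and 55% of genes above 0. The value of Col1a2 rests on 1 probe: 5 minus 12 weeks was 1.98 by probe 1157 (adjusted p = 0.221) and -0.36 by probe 592 (adjusted p = 0.582). Postn gave 1.19 by probe 1155 and 0.51 by probe 492. In treated mice, by the mean of its probes, the highest values of Postn in mdx diaphragm and in hindlimb of both strains were at 5 weeks. By probe 1155 alone, treated mdx hindlimb was highest at 3 weeks, at 3.92. By probe 592, Col1a2 in treated mdx hindlimb was 0.82, 1.00, 0.50 and 1.13 at 3, 5, 9 and 12 weeks, against 0.24, -0.18, 0.57 and 0.67 in treated BL10 hindlimb. It was thus highest at 12 weeks in both strains, whereas by probe 1157 it was highest at 5 weeks, at 4.29 in mdx hindlimb and 2.91 in BL10 hindlimb. The lowest value of Lox in treated mdx diaphragm (-0.74) and in treated BL10 hindlimb (-1.56, on the array that names MDX) was at 9 weeks, while treated mdx hindlimb had 1.27. In untreated mice 3 of the 7 differences of 5 minus 12 weeks were above 0, with a median of -0.06, against 68.9% of genes and a median of 0.14. Bgn alone of the 7 had an unadjusted p under 0.05 there, at -0.65 (adjusted p = 0.905; 3.3% of genes), and again at 9 weeks, at -0.85 (adjusted p = 0.914; 3.3%). Postn at 5 weeks was -0.38 in untreated mice, and 0.39 with Sample 1 as a term in the fit.

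**Figure D4:**
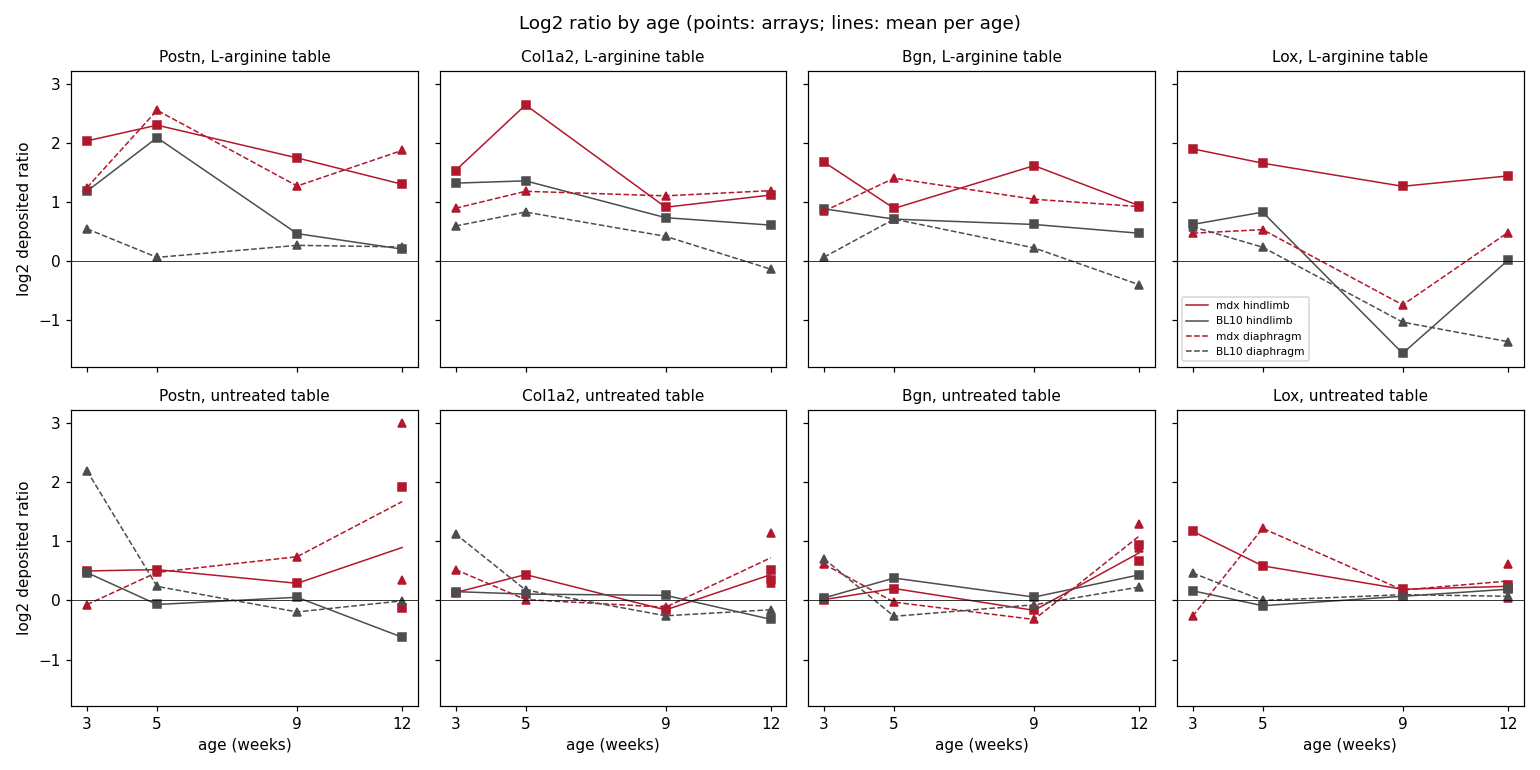
Log2 ratio against age in weeks for Postn, Col1a2, Bgn and Lox in the L-arginine table (top) and the untreated table (bottom); red is mdx, grey BL10, solid lines with squares hindlimb, dashed lines with triangles diaphragm. Lines join the mean per age; at 12 weeks the untreated mdx groups have a point each for Sample 1 and Sample 2, which for Postn in diaphragm lie at 3.00 and 0.35.

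With probes averaged per gene, Postn, Col1a2, Bgn and Lox varied together over the treated arrays, and Col5a1, Col5a2 and Fmod less so. Over the 16 arrays Postn correlated with Col1a2 at r = 0.75, with Bgn at 0.72 and with Lox at 0.67, and Col1a2 with Lox at 0.70. Bgn and Lox, with 1 probe each, correlated at 0.63. The 2 probes of Postn correlated with each other at only 0.27 there, and those of Col1a2 at 0.04. Whether each single probe of these 2 genes varies with the other genes was not tested. With the mean of the other 6 genes, Postn had r = 0.75 (Spearman's rho 0.72), Lox 0.76 (0.76) and Bgn 0.69 (0.70), while Col5a1 had -0.43 (-0.36). Over the 18 untreated arrays, Postn correlated with Col1a2 at 0.81, with Col5a1 at 0.74 and with Bgn at 0.54, and Col1a2 with Bgn at 0.72. Lox correlated with them less there: it had r = 0.35 with Postn, 0.16 with Col1a2 and -0.05 with Bgn, and 0.23 with the mean of the other 6 genes (0.07 without the 2 farthest arrays). These are descriptions over arrays that share strain, tissue and array scale. Without the 2 arrays farthest from the median, Postn had r = 0.67 with the mean of the others over treated arrays and 0.68 over untreated ones, against 0.84 with all untreated arrays. The genes most like the mean of the 7 over treated arrays were Ifi204 (r = 0.90), Lmcd1 (0.84), Elp2 (0.82), Ccni (0.81) and Ssc5d (0.81), with a median r of 0.17 over all genes. Over untreated arrays they were Igf2 (0.90), Vim (0.82), H19 (0.78), Ankrd1 (0.74) and Tceal7 (0.74), with a median of 0.05.

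Of 66 further matrix genes on a list, 7 were measured: the metalloproteinase inhibitors Timp2 and Timp3, the growth factors Tgfb1 and Tgfb3, the TGF-beta-induced protein Tgfbi, the basement membrane linker Nid1, and Ssc5d. None passed in any comparison. Over both treated tissues 4 of the 7 had a difference above 0 and 3 below, with a median of 0.24 against 0.06 over all genes. Ssc5d differed by 0.59 (adjusted p = 0.328), Timp2 by 0.58 (adjusted p = 0.602), Nid1 by 0.28 (adjusted p = 0.434) and Tgfb1, which drives collagen synthesis in fibroblasts, by -0.05 (adjusted p = 0.889). Ssc5d averaged 2.16 ± 0.95 in treated mdx hindlimb and 1.28 ± 1.03 in treated BL10 hindlimb (SD, n = 4 each).

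Of the markers of other cells, 2 macrophage genes and 1 gene of regenerating muscle passed the strain test in treated mice, over both tissues. All 4 measured of 13 macrophage genes (Lyz2, C1qb, Cd68 and Gpnmb) had a difference above 0 over both treated tissues, and 2 passed: Lyz2 at 1.38 (adjusted p = 0.00445) and C1qb at 0.73 (adjusted p = 0.0335). Their mean per array was 0.99 to 1.32 in treated mdx hindlimb, against -0.39 to 0.36 in treated BL10 hindlimb, and 0.75 to 1.04 in treated mdx diaphragm, against 0.02 to 0.57 in treated BL10 diaphragm. The 4 measured of 8 genes of regenerating muscle (Myod1, Igf2, H19 and Sln) averaged 1.00 to 1.88 in treated mdx hindlimb, against -0.27 to 0.99 in treated BL10 hindlimb, and 0.55 to 1.30 in treated mdx diaphragm, against -0.14 to 1.21 in treated BL10 diaphragm. Of these 4, Igf2 passed, at 1.52 (adjusted p = 0.00445). The fibroblast gene Vim differed by 0.29 (adjusted p = 0.508), the endothelial gene Pecam1 by -0.79 (adjusted p = 0.434) and the adipocyte gene Scd1 by -0.23 (adjusted p = 0.287), and 0 of 8 genes of the muscle fibre passed. Of 6 tendon and cartilage genes 0 were measured. In the untreated table the macrophage mean was 0.14 to 1.16 in mdx hindlimb, against -0.64 to 0.49 in BL10 hindlimb, and -0.34 to 1.31 in mdx diaphragm, against -0.41 to 0.12 in BL10 diaphragm. The highest mdx value in each tissue, 1.16 and 1.31, was that of Sample 1. The part of these cells in the differences of Postn, Bgn and Lox was not tested.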

How the data were processed

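Each of the 34 arrays has a column in 1 of 2 deposited value tables, 16 of treated and 18 of untreated mice, with 1200 probes each. The deposited values were read, from the values themselves, as a linear ratio of the array's channels; scanner, dyes, background correction and normalisation were not given in the sources used here. Per the labels, channel 1 is the strain at 12 weeks and channel 2 the named age. By the platform annotation 812 probes per table had 1 gene symbol, 99 several and 289 were not listed; only the first were used. Their gene identifiers were found in the RefSeq gene table for 792 (L-arginine) and 793 (untreated) probes, among them all 7 genes, and no symbol differed.

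Ratios above 0 were taken to log2 with no pseudocount, and others became missing. Probes of a gene were averaged, and genes with a value on at least 75% of a table's arrays were tested: 633 in the L-arginine table, 637 in the untreated table and 632 in both. Each table was fitted with limma 3.58.1 under R 4.3.3 (lmFit and eBayes; a call is a Benjamini-Hochberg adjusted p under 0.05) with group and age as terms, all arrays sharing one estimate of the spread. Only the difference of strain differences was fitted over both tables. Means and SD are over arrays, and SE and intervals (95%) are limma's. No 2 arrays were identical: the highest share of equal values in a pair was 2.58%. Arrays carry no counting error, and their number limits the precision. The fitting was tested on simulated data. Figures were drawn with Python 3.11.15.

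The members, the matrix and cell-marker lists and the tests were chosen with earlier results of these data known. All 7 genes are named; of further genes, those of the lists that were measured, and the 5 genes with the highest Pearson's r to the members' mean in each table. The alternatives were other between-array scalings, print-order trend, handling of values at or below 0, missing-value filters, probe summaries, no age term, array weights and left-out arrays. With probes fitted singly, the probe of smallest p stood for its gene in each comparison. Leaving out arrays from counts of groups that do not overlap, and the sample number at 12 weeks as a block, were chosen after seeing the data.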

Additional observations from a re-analysis of the deposited data

Results flagged for a closer look

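In 5 of 56 groups of 4 or 5 arrays, 1 array of a gene lay far from the nearest other by Dixon's criterion at 95%, which chance gives for about 1 in 20 groups. Postn in untreated mdx diaphragm was 3.00 on Sample 1 at 12 weeks, with the next array at 0.74. Lox in treated mdx diaphragm was -0.74 at 9 weeks, with the next at 0.48. Col5a2 in treated BL10 hindlimb was 0.90 at 5 weeks, with the next at -0.03. The untreated BL10 hindlimb array at 12 weeks was far below the others for Col1a2 (-0.32, next 0.09) and for Col5a2 (-0.36, next 0.16).

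Fmod in diaphragm had a strain difference of opposite sign in the tables. The mdx array was the lower at all 4 ages in treated mice, with differences of -0.53 to -0.01. It was the higher at all 4 in untreated mice, with differences of 0.03 to 0.21. The median difference over all genes in untreated diaphragm was 0.15, and the share of genes with such a turn was not counted. The mean of the Fmod differences differed by -0.47, L-arginine minus untreated table. In the joint limma fit this difference was -0.48 (adjusted p = 0.953) and did not pass.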

How the results depend on the processing

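In treated mice over both tissues, 3 genes passed as reported, 0 under quantile normalisation, 1 under array median centring, 0 under centring and scaling, 0 without the 12-week arrays, 0 without BL10 hindlimb at 9 weeks (treated), and 0 to 2 with each array left out in turn. The call held in 16 of 29 alternatives for Postn, 9 for Bgn and 8 for Lox; adjusted p ranged over them from 0.00315 to 0.237, 0.00831 to 0.569 and 0.0290 to 0.389. BL10 hindlimb at 9 weeks (treated) counts there both by name and among the arrays left out in turn. The 0.00315 of Postn is that of probe 1155, kept because fitting probes singly took each gene's probe of smallest p. By probe 492 the Postn difference over both tissues was 0.12 (adjusted p = 0.865, limma). Without single arrays, the call of Postn was lost without BL10 diaphragm at 9 weeks, mdx diaphragm at 5, 9 or 12 weeks, BL10 hindlimb at 9 or 12 weeks, or mdx hindlimb at 3, 5 or 9 weeks. Bgn and Lox each lost it in 14 of 16 such fits. Over all genes the count of calls was 10 as reported, 1 under quantile normalisation, 6 under median centring, 1 with scaling and 18 with the print-order trend removed. Quantile normalisation moved the median strain difference of all genes in treated hindlimb to 0.01, against 0.13 as reported.

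In treated hindlimb 0 genes passed as reported and 1 among genes with a value on every array (Lox). With probes fitted singly 2 passed (Postn and Lox). Postn stood there by probe 1155, its probe of smallest p, and by probe 492 it differed by -0.57. With arrays left out 0 to 1 passed (Lox, without BL10 diaphragm at 12 weeks or BL10 hindlimb at 5 weeks). In treated diaphragm 2 passed with array weights (Postn and Bgn). Between tissues of treated mdx mice 2 (Fmod and Lox) passed among genes with a value on every array and 2 with array weights. In untreated mice 0 to 1 passed with arrays left out (Fmod, without BL10 hindlimb at 9 weeks), for the strain in hindlimb and for the tissue in BL10. In that fit Fmod was lower in BL10 hindlimb than in mdx hindlimb and than in BL10 diaphragm. Side by side, and chosen after seeing the data, 5 genes lay above in mdx hindlimb without the Sample 1 arrays and 5 without the 12-week arrays, and 2 and 4 in mdx diaphragm. The cause of these changes was not tested.

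Signs turned for differences near 0. Col5a2 was -0.0229 in treated hindlimb with array weights, 0.0253 in treated diaphragm without the 12-week arrays and -0.310 to 0.0198 there with arrays left out. Over both tissues it was -0.107 (quantile), -0.0101 (centring), -0.0879 (scaling), -0.0682 (print order), -0.0828 (weights), -0.0226 (without BL10 hindlimb at 9 weeks) and -0.0757 to 0.150 with arrays left out. Fmod over both tissues was -0.362 (quantile), -0.143 (scaling), -0.00663 (without that array) and -0.150 to 0.185 with arrays left out. Col5a1 in treated diaphragm was -0.138 to 0.0328 with arrays left out. Untreated over both tissues, Postn was -0.0395 without the 12-week arrays, and Bgn -0.0882 without them and -0.000757 under quantile normalisation.

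Only the untreated mdx muscles at 12 weeks share numbers, Sample 1 and Sample 2, and nothing says that a number marks 1 animal. Over 627 genes the Sample 1 minus Sample 2 difference of hindlimb and of diaphragm correlated with r = 0.29, from 2 pairs. With that number as a replicate block, chosen after seeing the data, 0 of the 7 passed in the 12 comparisons that use the untreated table, as without it. Over both tissues Postn differed by 0.08 in untreated mice with the block, and the difference between the tables was 1.08 for Postn (adjusted p = 0.319), 0.71 for Bgn (0.277) and 0.79 for Lox (0.371). Fitting probes singly and dropping the age term gave no value for some comparisons.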
